A study of Homo sapiens with 4 samples.

Results

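The tetraspanins are small membrane proteins that cross the membrane 4 times, and their transcripts were followed here in MDA-MB-231 cells, a human triple-negative breast cancer line (spelled MDA-B-231 in the sample titles). Members were found by gene name: TSPAN followed by a number, together with CD9, CD37, CD53, CD63, CD81, CD82, UPK1A, UPK1B, PRPH2 and ROM1. These names matched 32 of the 61471 gene rows in each table, and do not take in every human tetraspanin. EGFP negative cells, labelled as extravasating more, gave 2 libraries, and EGFP positive cells, labelled as not extravasating more, gave 2. Both groups were transfected with a histone H2B-EGFP fusion and with a red fluorescent protein under the viral CMV promoter, and both are labelled wild type in genotype. EGFP status and extravasation status changed together in every library, so a difference between the groups cannot be assigned to either. Nothing in the labels says that the 2 libraries of a population were grown separately, or whether a population is 1 clone. The p-values therefore describe spread between libraries, and that spread may be purely technical.

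Tetraspanins work as organisers: through their large outer loop they hold integrins, immunoglobulin-family proteins, growth factor precursors and membrane proteases in patches of the plasma membrane called tetraspanin-enriched microdomains. Some cycle between the surface, endosomes and exosomes, and others are dedicated to 1 protease, the sheddase ADAM10. In breast and other cancers CD82 is known as a suppressor of metastasis, while CD9, CD63 and CD81 are the usual surface markers of extracellular vesicles.

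Total gene counts were 12635576 and 11620076 in the EGFP negative libraries and 11620005 and 11445076 in the EGFP positive libraries. A count of 3, taken as the floor of detection, corresponded to 0.237 to 0.262 CPM (counts scaled to library size) and covers counting error only. Replicate libraries differed beyond sampling noise, with a chi-square per degree of freedom of 6.77 between the EGFP negative libraries and 2.13 between the EGFP positive libraries. The line's identity was checked with 8 marker genes. VIM, CD44, EGFR and AXL together reached 8302 to 8810 CPM in EGFP negative and 7341 to 7376 CPM in EGFP positive libraries, and ESR1, PGR and CDH1 had 0 to 3 counts per library. Most of that sum was VIM, at 6022 and 5604 CPM in EGFP negative libraries and 4217 and 4181 CPM in EGFP positive libraries. CD44 went the other way, at 620 and 662 CPM in EGFP negative libraries and 859 and 872 CPM in EGFP positive libraries. So did EGFR, at 482 and 476 CPM in EGFP negative libraries and 594 and 608 CPM in EGFP positive libraries, and AXL overlapped. ERBB2, counted among the low markers of this line, was detected, with 1235 and 1108 counts in EGFP negative libraries and 942 and 929 counts in EGFP positive libraries.

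Of the 32 members, 20 passed the filter on low counts and 12 did not. Among the 20, EGFP negative cells had 7 at a higher and 5 at a lower level at an adjusted p under 0.05 (edgeR's quasi-likelihood test, Benjamini-Hochberg adjustment over all 16413 tested genes), and 8 were not called. Leaving out EGFP positive library 1 or library 2 gave 4 higher and 3 lower in each case. The libraries are bulk RNA, so fewer cells expressing a gene and less of its RNA per cell cannot be told apart. Over all tested genes 18.9% were called, 9.4% higher and 9.46% lower. Among genes with a mean of at least 5 CPM, 22.3% were called, and 17 members lay above that level, of which 7 were higher and 4 lower. The median log2 fold change was 0.06 over the 20 members, against -0.00 over all tested genes, and the median absolute log2 fold change was 0.52 and 0.22. Both libraries of 1 group lay beyond both of the other for 16 of the 20 members, which held for 57.4% of all tested genes. Fold changes are given as EGFP negative over EGFP positive.

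**Figure D1:**
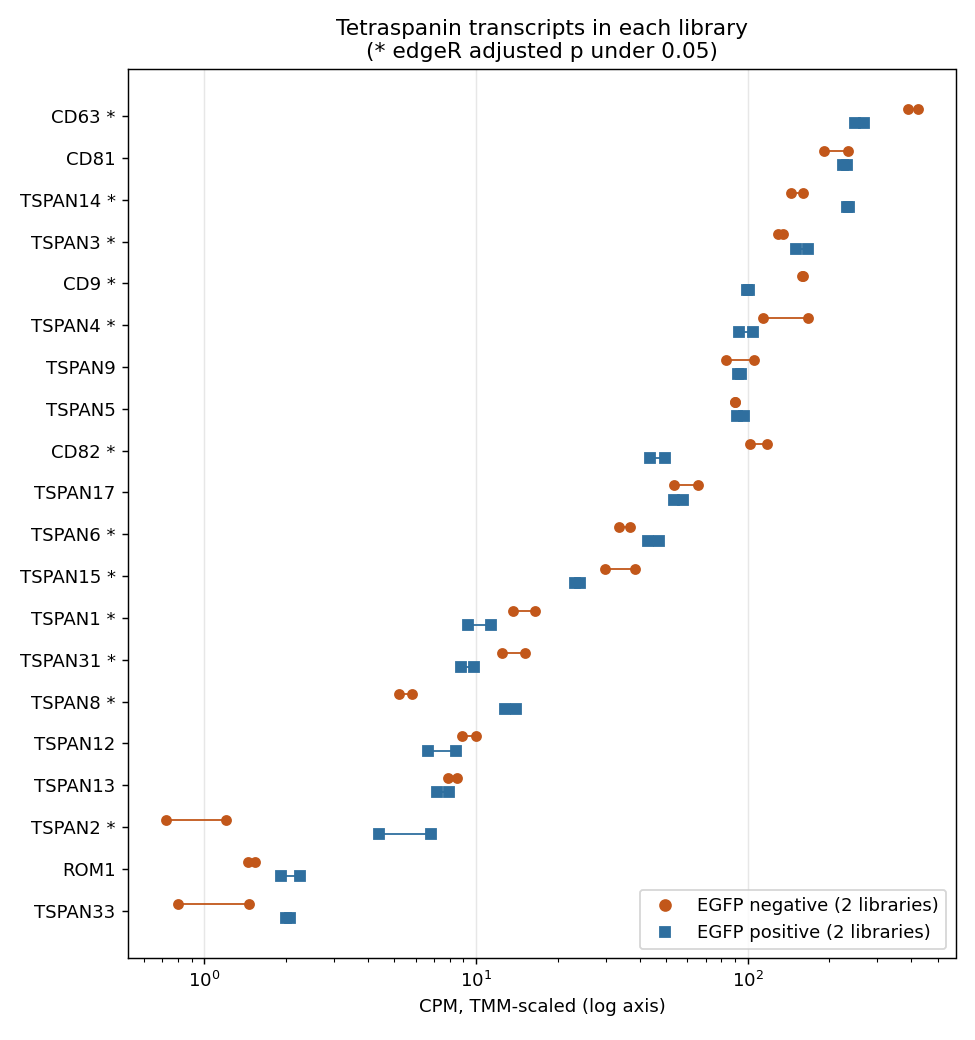
Level of the 20 measured tetraspanins in each library, in TMM-scaled CPM on a log axis, with 2 EGFP negative libraries (circles) above 2 EGFP positive libraries (squares) for each gene. Stars mark the 12 members with an adjusted p under 0.05; the groups stand farthest apart for TSPAN2, at 0.723 and 1.20 CPM in EGFP negative libraries and 4.41 and 6.86 CPM in EGFP positive libraries.

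The 6 members CD82, CD9, CD63, TSPAN14, TSPAN8 and TSPAN2 kept their call under all 11 alternative analyses. The other 6 called members, TSPAN31, TSPAN1, TSPAN15, TSPAN4, TSPAN3 and TSPAN6, lost it under at least 1, as given with each gene. Where a library is left out, its group holds 1 library, and the spread in that fit comes from the other group alone. Calls gained without an EGFP negative library thus hold no spread between EGFP negative libraries.

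CD82 had the largest rise of the family and TSPAN2 and TSPAN8 the largest falls. The stretches just upstream of their transcription starts are shown because these 3 genes mark the ends of the range of change. The sequences are from RefSeq (GRCh38.p14) and run 5′ to 3′ on the gene's own strand, outside the exons counted in the deposited tables: CD82 from chr11:44565413-44565600 on the plus strand, TSPAN2 from chr1:115089504-115089753 on the minus strand, and TSPAN8 from chr12:71158000-71158249 on the minus strand, the TSPAN8 stretch being for 1 of 2 listed starts and lying inside the gene's annotated span. Capitals mark matches on either strand to the GC box GGGCGG, the CCAAT box CCAAT, the TATA box TATAAA, the E-box CACGTG, the TEAD core GGAATG or the AP-1 site TGANTCA.
CD82: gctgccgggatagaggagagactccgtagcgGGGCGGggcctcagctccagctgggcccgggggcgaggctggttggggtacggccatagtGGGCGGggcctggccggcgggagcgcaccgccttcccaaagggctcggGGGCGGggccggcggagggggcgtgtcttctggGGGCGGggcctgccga
TSPAN2: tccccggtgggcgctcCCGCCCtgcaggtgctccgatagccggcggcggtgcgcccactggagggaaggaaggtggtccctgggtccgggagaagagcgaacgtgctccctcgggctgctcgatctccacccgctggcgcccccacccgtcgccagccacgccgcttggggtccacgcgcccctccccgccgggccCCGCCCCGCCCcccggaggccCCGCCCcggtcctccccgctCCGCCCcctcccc
TSPAN8: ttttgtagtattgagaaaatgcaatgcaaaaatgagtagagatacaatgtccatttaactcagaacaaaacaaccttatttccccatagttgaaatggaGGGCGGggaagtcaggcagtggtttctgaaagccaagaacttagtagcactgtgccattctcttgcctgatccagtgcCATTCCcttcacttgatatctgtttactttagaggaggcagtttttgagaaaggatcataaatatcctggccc
CD82 and TSPAN2 moved in opposite directions, and both stretches were rich in G and C (77.1% and 79.2%), with 4 GC boxes in CD82 and 5 in TSPAN2, of which 2 shared a base. The TSPAN8 stretch had 40.8% G and C, with 1 GC box and 1 TEAD core. RefSeq windows of 250 bases were found for 25 of the 32 members, 45 windows in all because some genes have several starts. A GC box stood in 60.0% of these windows and in 42.6% of 35116 windows of all genes, a CCAAT box in 22.2% and 32.0%, and a TATA box in 2.22% and 10.7%. The TEAD core stood in 15.6% and 11.9%, the E-box in 6.67% and 6.34% and the AP-1 site in 6.67% and 6.57%. A match is a run of letters and not a measured binding site.

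Among surface organisers, CD82, CD9 and TSPAN1 were higher in EGFP negative cells, TSPAN8 was lower, and CD81 was not called. CD82 (chromosome 11, 44565601 to 44620358, GRCh38), which restrains migration and integrin signalling in many tumour models, had 118 and 102 CPM in EGFP negative libraries and 49.7 and 43.8 CPM in EGFP positive libraries. The groups were far apart, with a log2 fold change of 1.23 ± 0.11 (SE) and an adjusted p = 2.2e-06. CD9 (chromosome 12, 6199715 to 6238271), a partner of integrins and of the sperm and egg fusion machinery, had 158 and 160 CPM in EGFP negative libraries and 101 and 99.6 CPM in EGFP positive libraries. Its replicates nearly coincided, and the log2 fold change was 0.66 ± 0.08 (SE; adjusted p = 7.92e-05). TSPAN1, found on epithelial surfaces, was much lower in level, at 13.7 and 16.5 CPM in EGFP negative libraries and 11.3 and 9.37 CPM in EGFP positive libraries (log2 fold change 0.54, adjusted p = 0.0439). The TSPAN1 call was lost without EGFP negative library 2 (adjusted p = 0.0895), EGFP positive library 1 (0.0746) or EGFP positive library 2 (0.383), by DESeq2 (0.136) and with no filter (0.084).

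TSPAN8 (chromosome 12, 71125085 to 71441898), an antigen of colon and other digestive carcinomas, went the other way. It had 5.22 and 5.83 CPM in EGFP negative libraries and 14.1 and 12.8 CPM in EGFP positive libraries (log2 fold change -1.29 ± 0.19, SE; adjusted p = 0.000268). CD81 (chromosome 11, 2376177 to 2397802), the close relative of CD9 and a receptor for hepatitis C virus, had 234 and 191 CPM in EGFP negative libraries and 233 and 224 CPM in EGFP positive libraries. These overlapped (log2 fold change -0.11 ± 0.10, SE; adjusted p = 0.51). The CD81 log2 fold change was -0.26 without EGFP negative library 1 and 0.04 without EGFP negative library 2.

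Ratios between members inside a library do not depend on scaling between libraries. CD82 counts per CD81 count were 0.502 and 0.537 in EGFP negative libraries and 0.213 and 0.195 in EGFP positive libraries, 2.54 times higher on average. CD9 counts per CD81 count were 0.675 and 0.838 in EGFP negative libraries and 0.434 and 0.444 in EGFP positive libraries. TSPAN8 counts per CD9 count were 0.0331 and 0.0365 in EGFP negative libraries and 0.139 and 0.129 in EGFP positive libraries. None of the 3 ratios overlapped between groups, and with 2 libraries against 2 the smallest exact two-sided permutation p is 0.33. TSPAN8 and CD9 already lay apart between the groups in opposite directions, so their ratio could not overlap and adds no support.

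Members of endosomes and lysosomes split, with CD63 and TSPAN31 higher, TSPAN3 and TSPAN6 lower, and TSPAN13 not called. CD63 (chromosome 12, 55725323 to 55729707), which sits in late endosomes, lysosomes and exosomes and binds the protease inhibitor TIMP1, had 423 and 389 CPM in EGFP negative libraries and 268 and 248 CPM in EGFP positive libraries. Its log2 fold change was 0.65 ± 0.08 (SE; adjusted p = 6.72e-05). CD63 counts per CD81 count were 1.81 and 2.04 in EGFP negative libraries and 1.15 and 1.11 in EGFP positive libraries. An antisense gene, CD63-AS1, shares 120 exon bases with CD63, and with counting that used no strand their reads there cannot be told apart; CD63-AS1 had 51 and 61 counts in EGFP negative libraries and 34 and 38 counts in EGFP positive libraries, against 5269 and 4538 and against 3093 and 2861 for CD63.

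TSPAN31, known from its amplification next to CDK4 in sarcomas, had 12.5 and 15.2 CPM in EGFP negative libraries and 8.82 and 9.81 CPM in EGFP positive libraries (log2 fold change 0.57, adjusted p = 0.0379). It overlaps CDK4 on the opposite strand over 1078 exon bases, 29.2% of its own. CDK4 had 1941 and 1673 counts in EGFP negative libraries and 1419 and 1348 counts in EGFP positive libraries, and its part in the TSPAN31 value was not tested. The TSPAN31 call was lost without EGFP negative library 2 (adjusted p = 0.0895), EGFP positive library 1 (0.272) or EGFP positive library 2 (0.119), by DESeq2 (0.129) and with no filter (0.073).

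TSPAN3, expressed in most tissues, had 130 and 135 CPM in EGFP negative libraries and 167 and 150 CPM in EGFP positive libraries, the smallest change among called members (log2 fold change -0.26, adjusted p = 0.0499). That call was lost without EGFP positive library 1 (adjusted p = 0.577) or library 2 (0.182), with no filter (0.0885), by DESeq2 (0.105), with RLE size factors (0.0553) and with upper quartile scaling (0.0596). TSPAN6, an inhibitor of antiviral RIG-I-like receptor signalling, had 33.6 and 36.9 CPM in EGFP negative libraries and 42.9 and 47.0 CPM in EGFP positive libraries (log2 fold change -0.35, adjusted p = 0.0406). It was not called without EGFP positive library 1 (adjusted p = 0.139) or library 2 (0.418), by DESeq2 (0.127) or with no filter (0.0855). TSPAN13 stood at 7.87 and 8.48 CPM in EGFP negative libraries and at 7.18 and 7.99 CPM in EGFP positive libraries, which overlapped (adjusted p = 0.765).

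**Figure D2:**
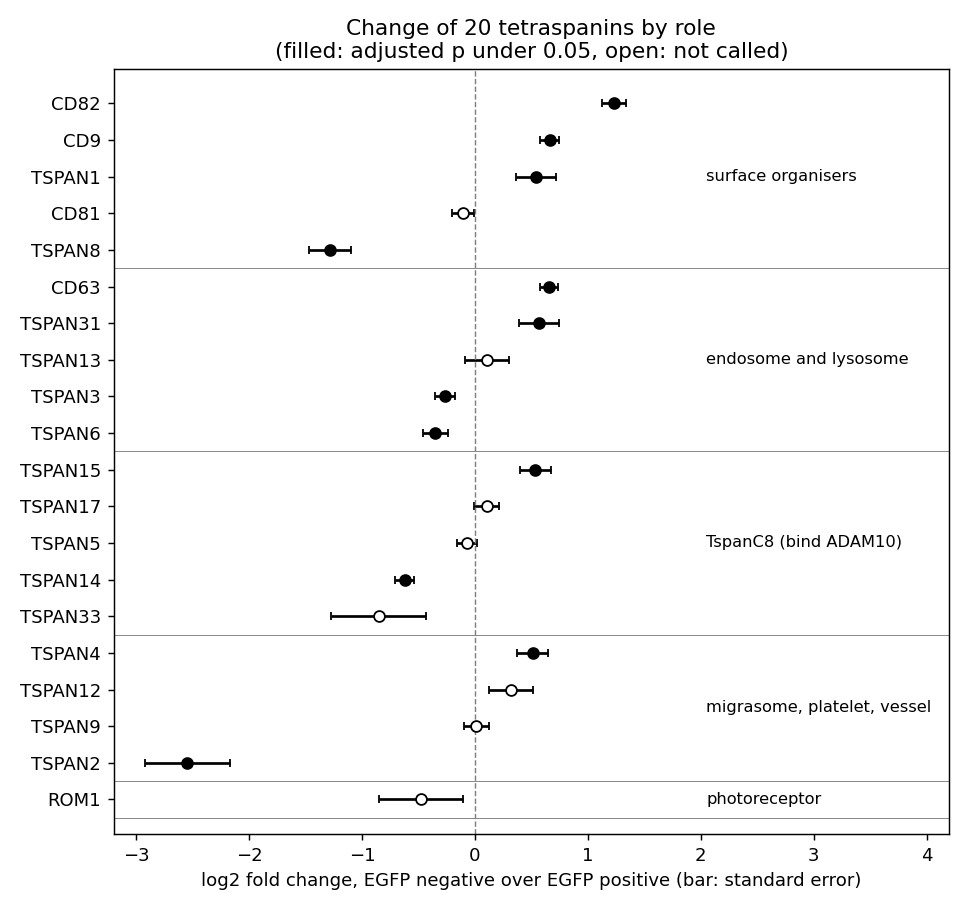
Log2 fold change of the 20 measured tetraspanins, EGFP negative over EGFP positive, grouped by role, with the standard error as a bar and filled symbols for an adjusted p under 0.05. Each of the first 4 groups holds members on both sides of 0, from 1.23 for CD82 to -2.55 for TSPAN2.

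The TspanC8 group, named for the 8 cysteines of the outer loop, escorts ADAM10 out of the endoplasmic reticulum and steers it to its substrates. Of its 6 members 5 were measured, and TSPAN14 and TSPAN15 moved in opposite directions. TSPAN14 (chromosome 10, 80454265 to 80533124) had 161 and 144 CPM in EGFP negative libraries and 237 and 232 CPM in EGFP positive libraries (log2 fold change -0.62 ± 0.08, SE; adjusted p = 0.000152). TSPAN15 (chromosome 10, 69451465 to 69507666), the member linked to shedding of N-cadherin, had 38.5 and 29.8 CPM in EGFP negative libraries and 23.1 and 24.1 CPM in EGFP positive libraries (log2 fold change 0.53 ± 0.14, SE; adjusted p = 0.0146). The EGFP negative libraries differed more from each other for TSPAN15 than the EGFP positive ones did, and its call was lost without EGFP negative library 1 (log2 fold change 0.33, adjusted p = 0.0504) or EGFP positive library 1 (adjusted p = 0.0915).

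The TSPAN15 to TSPAN14 ratio of counts was 0.240 and 0.207 in EGFP negative libraries and 0.0976 and 0.104 in EGFP positive libraries. This ratio could not overlap, because both genes already lay apart between the groups in opposite directions. Per exon length the same ratio was 2.41 and 2.08 in EGFP negative libraries and 0.982 and 1.05 in EGFP positive libraries; the 17136 exon bases listed for TSPAN14 take in many isoforms, so its per-length level depends on that annotation. TSPAN5, at 89.7 and 89.6 CPM in EGFP negative libraries and 91.5 and 97.1 CPM in EGFP positive libraries, was not called (adjusted p = 0.642). TSPAN17, its closest relative, was at 65.8 and 53.6 CPM in EGFP negative libraries and 57.7 and 53.6 CPM in EGFP positive libraries. It was not called with all libraries (adjusted p = 0.597), and leaving out EGFP negative library 2 gave a log2 fold change of 0.25. TSPAN33, a marker of activated B cells, had 10 and 17 counts in EGFP negative libraries and 24 and 23 counts in EGFP positive libraries (log2 fold change -0.85 ± 0.42, SE; adjusted p = 0.185). Its log2 fold change was -1.32 without EGFP negative library 2. TSPAN10 was below the filter, with 12 and 9 counts in EGFP negative libraries and 9 and 3 counts in EGFP positive libraries.

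Transcript levels of the protease itself overlapped between the groups. ADAM10 had 140 and 166 CPM in EGFP negative libraries and 148 and 148 CPM in EGFP positive libraries (log2 fold change 0.05 ± 0.09, SE; adjusted p = 0.795). TSPAN14 counts per ADAM10 count were 1.14 and 0.869 in EGFP negative libraries and 1.59 and 1.56 in EGFP positive libraries. ADAM17, a related sheddase, had 44.5 and 46.9 CPM in EGFP negative libraries and 38.8 and 34.5 CPM in EGFP positive libraries and was not called (adjusted p = 0.0584). Upper quartile scaling brought ADAM17 past the threshold (0.0458). Its log2 fold change was 0.32 with all libraries, 0.35 without EGFP negative library 1 and 0.29 without EGFP negative library 2. Of 20 listed genes for membrane proteins shed by ADAM10, 16 were measured, with 3 higher, 3 lower and a median log2 fold change of 0.02. Over all tested genes, 9.4% were higher and 9.46% lower. The adhesion molecule gene NECTIN1 had 1270 and 1108 counts in EGFP negative libraries and 713 and 715 counts in EGFP positive libraries (log2 fold change 0.67), and the prion protein gene PRNP had 451 and 448 CPM in EGFP negative libraries and 329 and 327 CPM in EGFP positive libraries (0.45). The neural adhesion molecule gene L1CAM had 77.1 and 73.5 CPM in EGFP negative libraries and 113 and 115 CPM in EGFP positive libraries (-0.60). MICA (-0.61, adjusted p = 0.0282) and CD44 (-0.43) were also lower, and CD44 is counted again among the surface partners below. With no filter or by DESeq2, 2 genes of this list were lower. CDH2, which encodes N-cadherin, was near the floor, with 1 and 5 counts in EGFP negative libraries and 11 and 13 counts in EGFP positive libraries. It was not called (log2 fold change -2.01, adjusted p = 0.0538). SORL1, a sorting receptor better known as a substrate of ADAM17, changed most, with 43.7 and 39.0 CPM in EGFP negative libraries and 6.92 and 5.82 CPM in EGFP positive libraries (2.70).

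Tetraspanins known from migrasomes, platelets and vessels included the largest fall of the family. TSPAN2 (chromosome 1, 115048011 to 115089503), studied in oligodendrocytes and vascular smooth muscle, had 9 and 14 counts in EGFP negative libraries and 51 and 79 counts in EGFP positive libraries. On the CPM scale these are 0.723 and 1.20 in EGFP negative libraries and 4.41 and 6.86 in EGFP positive libraries, a 5.84-fold lower level (log2 fold change -2.55 ± 0.37, SE; adjusted p = 0.000287). TSPAN4 (chromosome 11, 842812 to 867116), a builder of migrasomes, which are vesicles left on the retraction fibres of moving cells, had 167 and 114 CPM in EGFP negative libraries and 104 and 93.1 CPM in EGFP positive libraries. The EGFP negative libraries were unequal, and the log2 fold change was 0.51 ± 0.14 (SE; adjusted p = 0.0195). Leaving out EGFP negative library 1 gave TSPAN4 a log2 fold change of 0.20 (adjusted p = 0.0501), leaving out EGFP positive library 2 gave 0.43 (adjusted p = 0.074), and DESeq2 gave an adjusted p = 0.279.

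TSPAN9, a platelet tetraspanin also found in migrasomes, overlapped between groups at 106 and 83.0 CPM in EGFP negative libraries and 94.8 and 92.2 CPM in EGFP positive libraries (log2 fold change 0.01 ± 0.11, SE; adjusted p = 0.953). TSPAN12, the co-receptor that helps the ligand Norrin signal through FZD4 in retinal vessels, had 8.92 and 10.0 CPM in EGFP negative libraries and 8.48 and 6.68 CPM in EGFP positive libraries (adjusted p = 0.305). Of 4 genes of the Norrin receptor complex, LRP5 was higher, at 402 and 341 CPM in EGFP negative libraries and 187 and 166 CPM in EGFP positive libraries (log2 fold change 1.07), and FZD4 and LRP6 were not called. NDP, which encodes Norrin, had 17 and 17 counts in EGFP negative libraries and 0 and 0 counts in EGFP positive libraries, at least 10.8-fold higher against a floor of 3 counts over the group (adjusted p = 0.000753). NDP was not tested under the stricter filter and got no adjusted p from DESeq2, and 1 of the 4 genes was called lower without EGFP negative library 2. The median of these 4 genes was 0.54, also with NDP at that bound. TSPAN18, a partner of the calcium channel ORAI1 in endothelium, was below the filter with 4 and 0 counts in EGFP negative libraries and 0 and 0 counts in EGFP positive libraries. Of 5 ORAI and STIM genes, STIM2 was lower, at 24.2 and 26.8 CPM in EGFP negative libraries and 32.7 and 33.3 CPM in EGFP positive libraries, with an adjusted p = 0.0426. STIM2 lost its call without EGFP negative library 1 (adjusted p = 0.0664), EGFP positive library 1 (0.237) or EGFP positive library 2 (0.297), with upper quartile scaling (0.0508), with no filter (0.0898) and by DESeq2 (0.149). The calls of this list depended on the setting, and over all tested genes 9.4% were higher and 9.46% lower. None was called higher with all libraries, against 2 with upper quartile scaling, 1 with RLE size factors, 1 with the stricter filter, and 1 when either EGFP negative library was left out. Without EGFP negative library 1, 2 were lower.

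**Figure D3:**
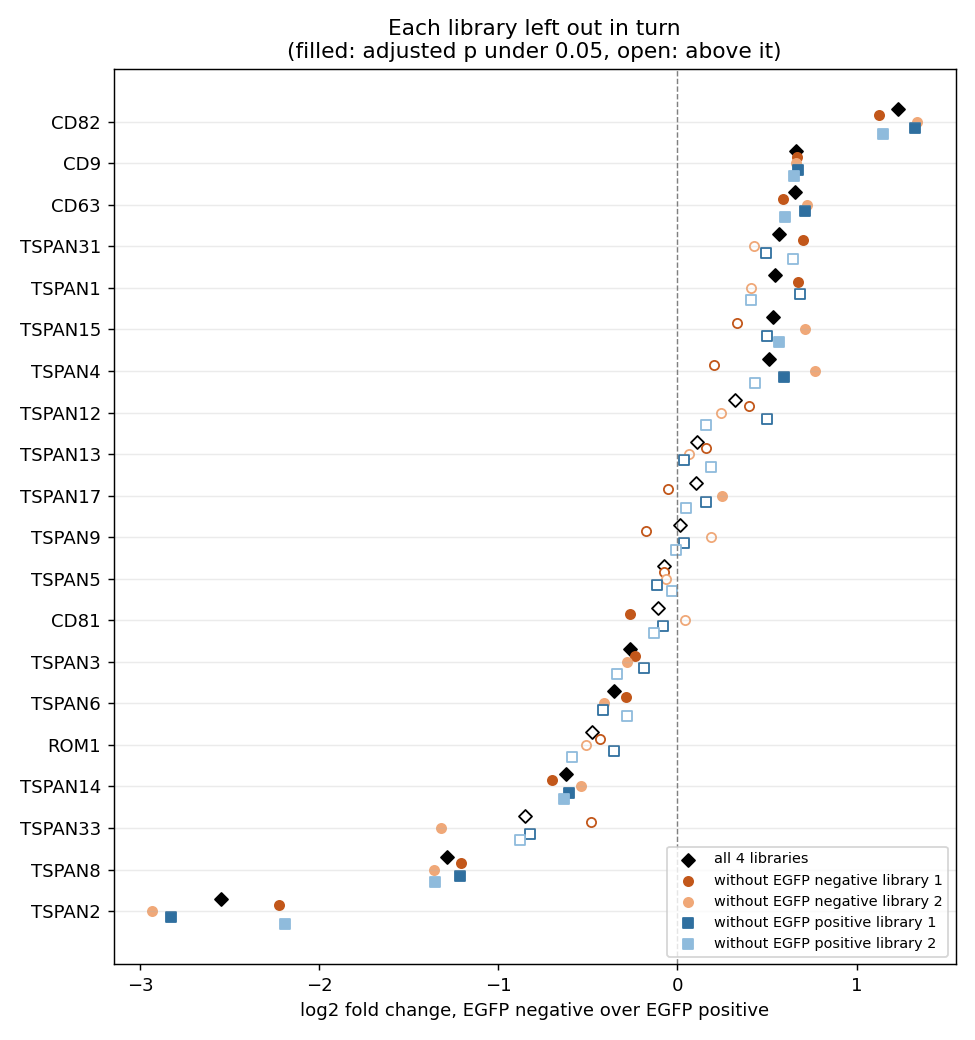
Log2 fold change of the 20 measured tetraspanins, EGFP negative over EGFP positive, with all 4 libraries (diamonds) and with each library left out in turn (circles and squares), filled where the adjusted p was under 0.05. CD82 stayed between 1.13 and 1.34 and TSPAN2 between -2.93 and -2.19, while TSPAN4 ran from 0.20 to 0.77.

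Photoreceptor, uroplakin and leukocyte tetraspanins had low counts, all but ROM1 at or under the floor of 3 counts in every library. ROM1, a structural protein of photoreceptor discs, passed the filter at 18 and 18 counts in EGFP negative libraries and 26 and 22 counts in EGFP positive libraries (log2 fold change -0.47 ± 0.37, SE; adjusted p = 0.434). Its partner PRPH2 had 3 counts over all 4 libraries, and PDE6B, a photoreceptor enzyme, had 2. The uroplakin UPK1B had 0 counts in every library and UPK1A had 1 in all, with 2 counts each for UPK2 and UPK3B and 0 for UPK3A. The leukocyte tetraspanins CD37, CD53 and TSPAN32 had 3, 1 and 0 counts in all. Among 4 leukocyte markers, CD3E and MS4A1 were at 0, PTPRC had 2 to 6 counts per library, and LYZ had 10 and 15 counts in EGFP negative libraries and 2 and 3 in EGFP positive libraries, and the 4 summed to 1.12 and 1.46 CPM in EGFP negative libraries and 0.692 and 0.434 CPM in EGFP positive libraries. Among 4 endothelial markers CDH5 was at 0, and the list summed to 13.7 and 11.7 CPM in EGFP negative libraries and 14.2 and 14.2 CPM in EGFP positive libraries; PECAM1, 1 of the 4, had 39 and 43 counts in EGFP negative libraries and 9 and 9 counts in EGFP positive libraries. KDR, the most abundant of the 4, went the other way, with 131 and 94 counts in EGFP negative libraries and 152 and 153 counts in EGFP positive libraries, and VWF had 1 and 0 counts in EGFP negative libraries and 3 and 2 counts in EGFP positive libraries. The 6 fibroblast markers summed to 28.8 and 18.8 CPM in EGFP negative libraries and 27.4 and 23.3 CPM in EGFP positive libraries, mostly from COL1A1, with DCN at 0. PDGFRB, also on that list, had 73 and 52 counts in EGFP negative libraries and 37 and 21 counts in EGFP positive libraries. LYZ, PECAM1, KDR and PDGFRB did not overlap between the groups, which held for 57.4% of all tested genes. VWF lay at or under the floor of 3 counts in every library. The part of these markers in the tetraspanin values was not tested. TSPAN7, TSPAN11, TSPAN16 and TSPAN19 had 2, 0, 1 and 11 counts in all. Members below the filter were not tested, so no statement on a difference between groups is made for them.

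Per exon length the family was carried by a few members. Summed over the 32 genes it reached 1354 and 1227 TPM (transcript level scaled for exon length and library size) in EGFP negative libraries and 1052 and 1024 TPM in EGFP positive libraries, without overlap. CD63 was first in both groups, with 32.8% and 34.0% of the family's TPM in EGFP negative libraries and 27.4% and 26.7% in EGFP positive libraries. CD81 was second, with 12.9% and 11.8% in EGFP negative libraries and 16.9% and 17.1% in EGFP positive libraries. TSPAN4 and CD9 followed in both groups by their means, 131 ± 33.4 and 130 ± 2.93 TPM in EGFP negative cells and 94.6 ± 5.92 and 84.3 ± 0.555 TPM in EGFP positive cells (SD, n = 2); in EGFP negative cells their library values interleaved, at 155 and 107 TPM for TSPAN4 and 128 and 132 TPM for CD9. CD82 was at 108 ± 8.95 TPM in EGFP negative cells, in rank 5, and at 46.9 ± 3.37 TPM in EGFP positive cells, in rank 7, behind TSPAN5 and TSPAN3. In EGFP positive cells the libraries of CD82 and TSPAN9, the next in order, interleaved. In all, 5 members exceeded a mean of 100 TPM in EGFP negative cells and 2 did in EGFP positive cells.

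**Figure D4:**
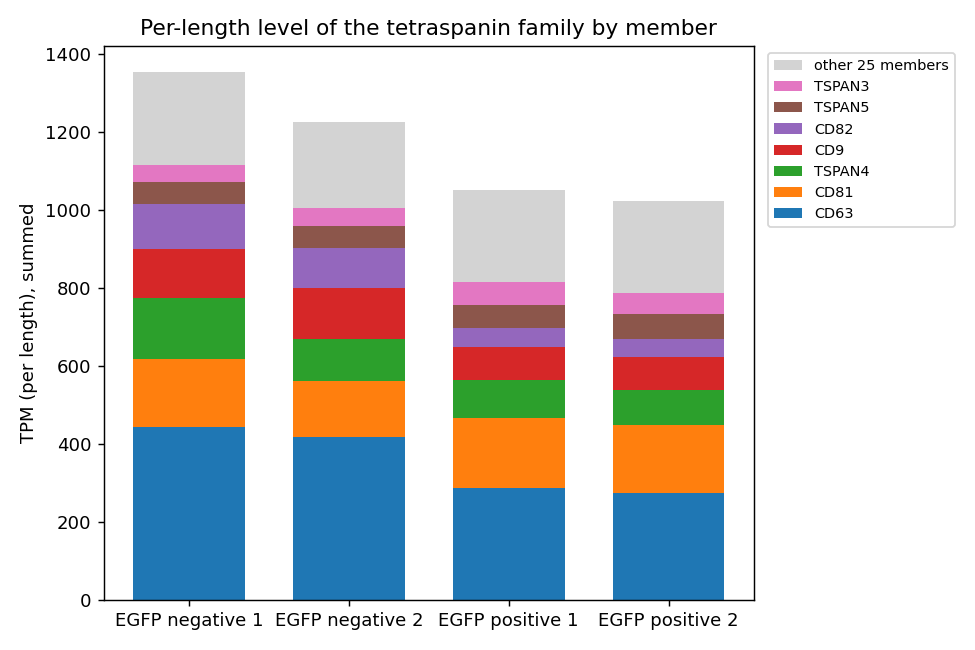
Summed per-length level of the tetraspanin family in TPM, with 1 bar for each of the 2 EGFP negative and 2 EGFP positive libraries, split into the 7 members with the highest level in EGFP negative cells and the other 25. CD63 is the largest part of every bar, and the CD82 part is 114 and 101 TPM in EGFP negative libraries and 49.3 and 44.6 TPM in EGFP positive libraries.

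By position, chromosome 12 carries 7 members, 5 of them measured, with CD9, CD63 and TSPAN31 higher, TSPAN8 lower and TSPAN9 not called. Over all 858 tested genes of chromosome 12, 33% were called, 24.8% higher and 8.16% lower, with a median log2 fold change of 0.15. Chromosome 11 carries 6 members, 4 of them measured, with CD82 and TSPAN4 higher, and its 857 tested genes were called in 18.7%, higher in 9.92% and lower in 8.75%.

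Transcripts of proteins that tetraspanins hold in the membrane moved in both directions across the lists. Of 3 measured immunoglobulin-family partners of CD9 and CD81, IGSF8 was lower, at 15.3 and 11.6 CPM in EGFP negative libraries and 24.0 and 20.3 CPM in EGFP positive libraries (log2 fold change -0.72, adjusted p = 0.007). That call was lost without EGFP positive library 1, at a log2 fold change of -0.60. PTGFRN was near the floor, with 7 and 10 counts in EGFP negative libraries and 12 and 12 counts in EGFP positive libraries. Of 5 measured integrin subunits found with tetraspanins, ITGB4, ITGA5, ITGB1 and ITGA3 were higher, with log2 fold changes of 2.75, 0.36, 0.29 and 0.23, and ITGA6 was not called. Over all tested genes, 9.4% were higher and 9.46% lower. Leaving out EGFP positive library 1 or library 2 left 1 of the 5 called, with adjusted p of 0.132 and 0.167 for ITGA5, 0.306 and 0.213 for ITGB1, and 0.317 and 0.516 for ITGA3, which DESeq2 did not call either (0.0656). ITGB4, the beta subunit of hemidesmosomes, was at 596 and 503 CPM in EGFP negative libraries and 86.2 and 76.8 CPM in EGFP positive libraries.

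Of 15 measured surface partners, 2 were higher and 4 lower, against 9.4% and 9.46% over all tested genes, with a median log2 fold change of 0.02. MMP14, a membrane-anchored collagenase, had 1276 and 1214 CPM in EGFP negative libraries and 756 and 725 CPM in EGFP positive libraries (log2 fold change 0.75, adjusted p = 6.21e-06). The EGF receptor ligand TGFA also rose (0.71), while the endothelial and leukocyte adhesion molecule ICAM1 (-1.21) and the hyaluronan receptor CD44 (-0.43) fell. The higher count of this list was 4 without EGFP negative library 1. Of 25 exosome and multivesicular body genes, 4 were higher and 1 lower, against 9.4% and 9.46% over all tested genes, with a median of 0.12. RAB31 was at 67.6 and 73.8 CPM in EGFP negative libraries and 45.8 and 50.4 CPM in EGFP positive libraries (log2 fold change 0.56), and LAMP1 at 362 and 324 CPM in EGFP negative libraries and 280 and 270 CPM in EGFP positive libraries (0.32). RAB27B, which helps dock vesicles at the surface, was also higher (0.43), and the sphingomyelinase SMPD3 was lower (-1.67), at 20 and 17 counts in EGFP negative libraries and 70 and 43 counts in EGFP positive libraries. RAB31 (adjusted p = 0.0528) and SMPD3 (0.0745) lost their calls without EGFP positive library 1. LAMP1 lost its call without EGFP positive library 1 (0.156) or library 2 (0.268), as did RAB27B (0.156 and 0.182), which was also not called with no filter (0.0548) or by DESeq2 (0.0689). The count of higher genes in this list was 0 and 1 when EGFP positive library 1 or library 2 was left out, and 10 without EGFP negative library 2, and that of lower genes was 0 without EGFP positive library 1, 2 without EGFP negative library 1 and 3 without EGFP negative library 2.

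Of 15 measured cytoplasmic partners and modifying enzymes, the kinase gene PRKCA was higher, with 322 and 315 CPM in EGFP negative libraries and 235 and 226 CPM in EGFP positive libraries (log2 fold change 0.47, adjusted p = 0.00077), and none was lower. The PRKCA call was lost when EGFP positive library 2 was left out (adjusted p = 0.0512), 2 genes were higher without EGFP negative library 1, and 1 was lower without either EGFP negative library. The median of that list was -0.10, and over all tested genes 9.4% were higher and 9.46% lower. Of the L6 family, 4-pass proteins that resemble tetraspanins without belonging to them, 2 of 6 were measured, and TM4SF1 was higher, at 275 and 271 CPM in EGFP negative libraries and 171 and 177 CPM in EGFP positive libraries (log2 fold change 0.65, adjusted p = 5.48e-05).

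**Figure D5:**
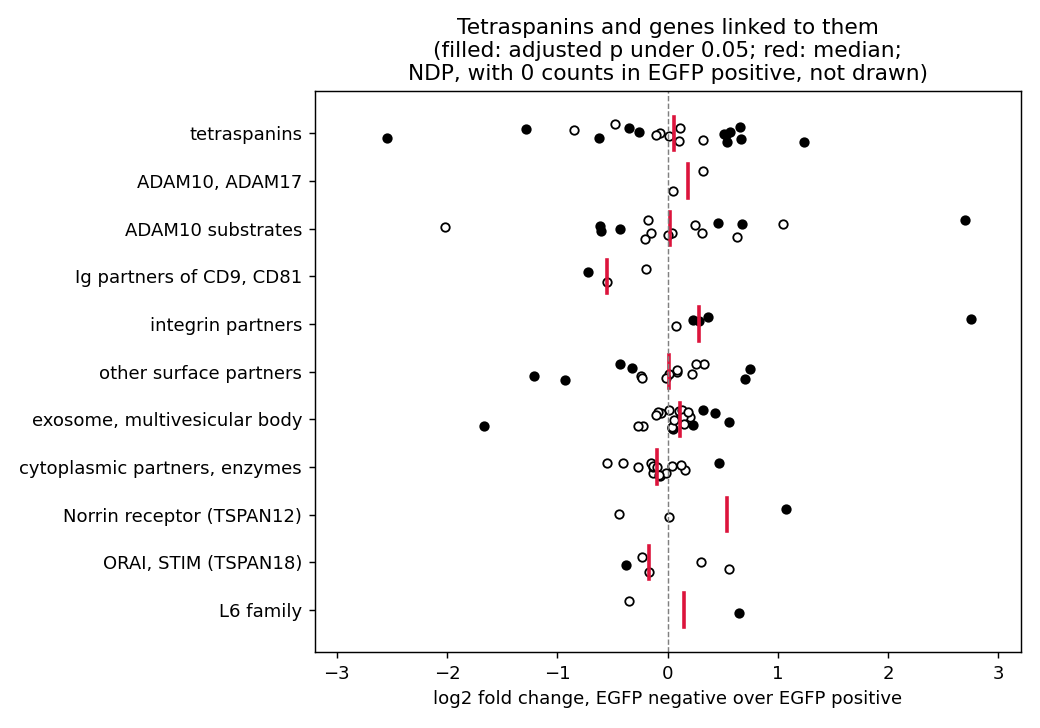
Log2 fold change, EGFP negative over EGFP positive, of the 20 measured tetraspanins and of the measured genes of 10 lists linked to them, with filled points for an adjusted p under 0.05 and a red line at each median; NDP is not drawn. The tetraspanins spread from -2.55 to 1.23 around a median of 0.06.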

How the data were processed

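Raw fragment counts per gene name were deposited for 4 libraries of polyA-selected, stranded RNA (per the labels' protocols). Per the file headers, the counts were made by featureCounts 2.0.1 over exons of the GENCODE 46 basic annotation, from paired reads with no strand option. The aligner is not given in the sources used here. The submitters' processing notes list Subread, GRCh37 and hg19, while the coordinates of all 32 members overlapped their gene in GENCODE 29 on GRCh38. From these counts, edgeR 4.0.16 (R 4.3.3) fitted all 4 libraries with TMM scaling, filterByExpr (minimum count 10, minimum total 15) and its quasi-likelihood test; the SE was the log2 fold change over the square root of F. CPM and TPM were computed here from the deposited counts. Alternatives were RLE and upper quartile scaling, no filter, a stricter filter (at least 1 CPM in 2 libraries, total count 100), limma-voom (limma 3.58.1), DESeq2 1.42.0, the replicate number as a block, and each library left out. Members and companion lists were chosen with earlier results of these data known. Every member past the filter is named; from each list came up to 4 called genes with the smallest adjusted p, or else the 2 highest, plus ADAM10, IGSF8 and PTGFRN. ITGA6, MICA, CDH2, FZD4, LRP6, CDK4, CD63-AS1 and the marker genes lie outside that rule. A gene can stand in more than 1 list. A list was described by counts and its median, with no test of the list. Figures were drawn with matplotlib 3.10.9.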

Additional observations from a re-analysis of the deposited data

How the results depend on the processing

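Directions of the 12 called members held under all 11 alternatives. With each library left out, 4 to 6 members were higher and 3 to 6 lower, and over all genes 720 to 2477 were higher and 715 to 2465 lower. DESeq2 called 4 members higher and 3 lower. Over all genes it called 1044 higher and 997 lower, against 1543 and 1552 in the main analysis. With no filter 5 members were higher and 3 lower. The cause of these shifts was not tested. The replicate block gave 2297 higher and 2407 lower genes, against 1543 and 1552 without it. The members stayed at 7 higher and 5 lower. Same-numbered libraries deviated together only weakly (r = 0.11 across genes), so the numbers are not taken to pair the samples. ADAM17 passed under the block (adjusted p = 0.00958). Among the companion lists, the block gave 5 higher and 5 lower ADAM10 substrates (3 and 3 without it), 3 lower exosome genes (1 without it), 2 lower cytoplasmic partners (0 without it) and 1 lower gene of the Norrin complex (0 without it). It gave 2 higher and 2 lower ORAI and STIM genes (0 and 1 without it). Of the members' values under the alternatives, 190 kept their side of the threshold, 25 lost the call and 3 gained it. RLE and upper quartile scaling moved the median of all genes by less than 0.1 on the log2 scale. Depth limits the members with the lowest tested counts, TSPAN33 and ROM1, whose SE of 0.42 and 0.37 is wide. TSPAN2, the largest fall, also had an SE of 0.37, with 9 and 14 counts in EGFP negative libraries.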
